A study of Mus with 12 samples.

Results

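The Wnt genes described here are those for the secreted ligands, their Frizzled receptors, the LRP co-receptors, the secreted antagonists, the R-spondins with their LGR receptors, and 2 genes downstream in the same pathway, Axin2 and Lef1. They were chosen by name: a row of an expression table was taken where its gene name belonged to these families and its transcripts included an Ensembl one. This gave 51 of the 87235 rows tabulated for E0.5 and E4.5, and 45 of the 40787 for E15.5 and E18.5. The 51 genes include 2 long noncoding RNAs, Fzd10os, which lies beside Fzd10, and Rspo4os, which lies within Rspo4 on the opposite strand. All 45 genes of the second table were also in the first, and 6 (Dkk1, Fzd10os, Rspo2, Wnt1, Wnt3a and Wnt8a) had a row in the first table only. A further 41 and 5 rows carried a member's name without an Ensembl transcript and were left out by the rule.

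Wnt proteins are lipid-modified secreted signals that act over short distances. A Wnt ligand that binds a Frizzled receptor together with Lrp5 or Lrp6 stops the destruction of beta-catenin, which then enters the nucleus and switches on targets with TCF and LEF factors, while other ligands act through Frizzled and Ror receptors without beta-catenin. SFRP and WIF proteins bind ligands outside the cell, some DKK proteins block the LRP co-receptors, and R-spondins acting on Lgr4, Lgr5 and Lgr6 keep Frizzled receptors on the cell surface. In the mouse uterus the pathway is known for its part in the growth of the glands, in the attachment of the embryo and in the change of stromal cells into decidua.

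Whole uteri came from pregnant ICR mice, an outbred strain, recorded as 8 weeks old, and the labels name no treatment and no altered gene in any group. The 4 groups are named for the day of pregnancy. E0.5 and E4.5 made up the implantation stage, E15.5 and E18.5 made up the labor stage, and each held 3 libraries from separate mice. Whether embryos and placentas were removed from the later uteri was not given in the sources used here. The tables of the 2 stages were assembled and normalized separately, so a level in FPKM (fragments per kilobase of transcript, scaled to the library's total) was compared between groups of 1 stage only. Fold changes are E0.5 relative to E4.5 and E18.5 relative to E15.5, the directions the study used. The criterion is the study's: a log2 fold change of 1 or more in either direction and, before any adjustment, a p under 0.05. The adjusted p is corrected over all rows tested in the stage.

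The E0.5 and E4.5 libraries held 58020989 to 70906881 counts each, while the depth of the labor libraries is unknown because their table gives FPKM only. E4.5 replicate 3 stood apart from the other E4.5 libraries, with rank correlations of 0.627 and 0.598 with them against 0.817 between those, taken across rows. Its 7 ovary markers, steroid and follicle genes such as Star and Cyp11a1, summed to 1320 FPKM with all of them detected, against 4.28 to 6.42 in the other 5 libraries. Its 4 oviduct markers summed to 94.2 FPKM against 8.20 to 35.4, and its 6 smooth muscle markers to 201 FPKM against 779 to 1190. Among the 38 Wnt genes tested in this stage it held the highest or lowest of the 6 values in 29 (76.3%, against 42.2% of all rows), and the other libraries in 8 to 12 each. Tied values were counted for the first library in order, so its share of all rows may be too low. The part of E4.5 replicate 3 in the results below was not tested, and values without it are given for the genes that met the criterion and for several others. In these bulk samples fewer cells of a type and less RNA per cell cannot be told apart.

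At the implantation stage 13 of the 38 tested Wnt genes met the criterion, 5 higher at E0.5 and 8 lower, where 12.2% of all rows tested met it, 6.37% higher and 5.82% lower. Those higher at E0.5 were Wnt9a, Fzd7, Fzd10, Rspo1 and Rspo3, and those lower were Wnt6, Wnt7b, Wnt10b, Wnt11, Sfrp4, Sfrp5, Lgr6 and Lef1. Only Rspo3 and Wnt11 also passed the adjusted p (1.22% of all rows), and each lost it when any E0.5 library or E4.5 replicate 1 or 2 was left out, while 15 had an unadjusted p under 0.05 (17% of all rows). Without E4.5 replicate 3, 12 genes met the criterion (14.1% of all rows) and 9 passed the adjusted p (6.08% of all rows). The median log2 fold change over the 38 genes was -0.39, against -0.007 over all rows. Without that library it was 0.11, against 0.053 over all rows. A further 13 rows averaged under 0.1 FPKM and were not tested: Wnt1, Wnt3, Wnt3a, Wnt8a, Wnt8b, Wnt9b, Wnt10a, Fzd9, Dkk1, Dkk4, Wif1, Rspo4 and Rspo4os. Of these, Wnt1 and Dkk1 had no count in any library.

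**Figure D1:**
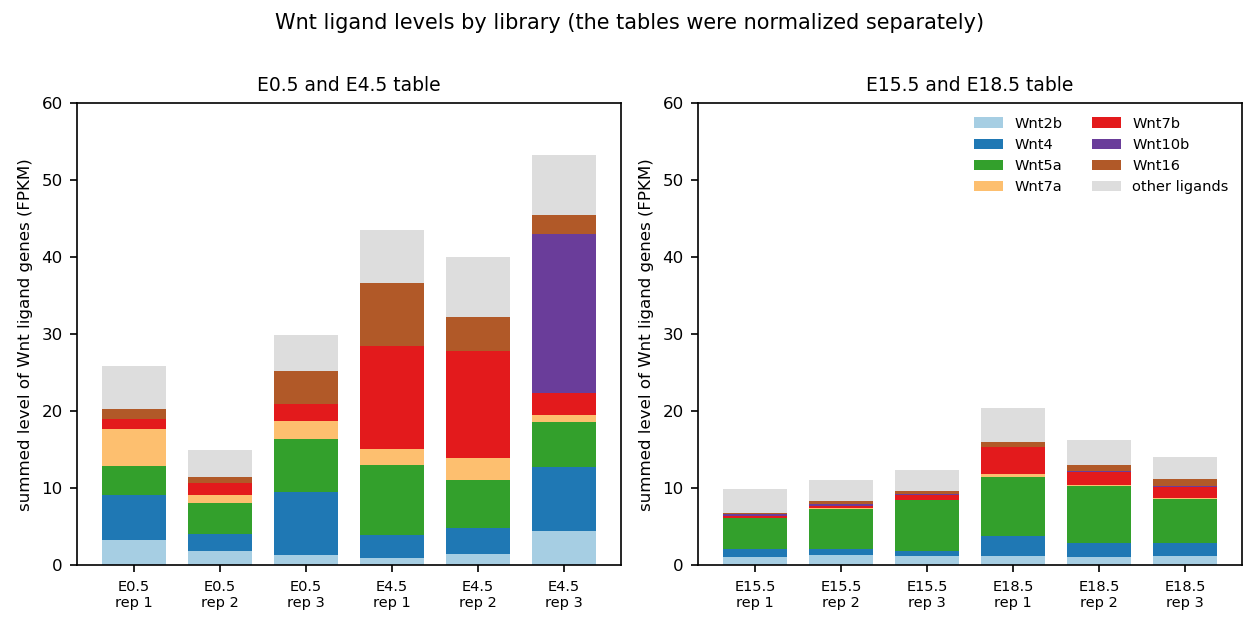
Summed level of the Wnt ligand genes in FPKM (vertical axis) in each library (horizontal axis), with the leading ligands coloured and the rest in grey; the panels come from tables normalized separately. The 3 E0.5 libraries stood at 15.0 to 29.9 FPKM and the 3 E4.5 libraries at 40.1 to 53.3 FPKM, with Wnt7b the largest part in E4.5 replicates 1 and 2 and Wnt10b in replicate 3.

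Among the ligands, the leading gene changed with the day. In E0.5 replicates 1 and 3 the ligand at the highest level was Wnt4, at 5.86 and 8.10 FPKM, and in replicate 2 it was Wnt5a, at 4.07 FPKM. In E4.5 replicates 1 and 2 it was Wnt7b, which made up 30.8% and 35.0% of the summed ligand level. In E4.5 replicate 3 it was Wnt10b, at 38.8% of the sum. The plot of ligand levels by library shows the summed level as higher in every E4.5 library than in any E0.5 library.

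Wnt7b (chr15:85535437-85581821, minus strand, GRCm38), a ligand made mainly by epithelia, gave 1.33, 1.47 and 2.12 FPKM in the E0.5 libraries and 13.4, 14.0 and 2.81 FPKM in those of E4.5. The groups did not overlap (25.2% of all rows tested did not), but E4.5 replicate 3 lay much nearer to E0.5 than the other E4.5 libraries did. The log2 fold change was -2.62 ± 0.61 (SE; adjusted p = 0.0993), and -3.07 without that library (adjusted p = 0.00167). Wnt11 (chr7:98833952-98853811, plus strand), which mostly signals without beta-catenin, gave 0.352, 0.146 and 0.464 FPKM in the E0.5 libraries against 2.96, 2.40 and 2.29 FPKM at E4.5. All 3 E4.5 libraries, replicate 3 included, stood well above E0.5 (log2 fold change -2.98 ± 0.44; adjusted p = 0.0385), and without replicate 3 it was -3.07 (adjusted p = 0.0132).

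Wnt6 (chr1:74771892-74785322, plus strand) showed the same order, with 0.130, 0.162 and 0.383 FPKM at E0.5 against 1.92, 1.34 and 2.25 FPKM at E4.5. The groups were again fully apart (-2.99 ± 0.51; adjusted p = 0.0523), and without E4.5 replicate 3 the value was -2.85 (adjusted p = 0.0286). Wnt9a (chr11:59306928-59333552, plus strand) went the other way, at 2.81, 1.43 and 2.68 FPKM at E0.5 against 0.706, 1.19 and 0.650 FPKM at E4.5. Every E0.5 library lay above every E4.5 library (1.44 ± 0.36; adjusted p = 0.118), with 1.27 when E4.5 replicate 3 was left out (adjusted p = 0.104). These 4 ligands met the criterion whichever library was left out.

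Wnt10b (chr15:98770712-98778150, minus strand) had no count in any E0.5 library, 14 counts in E4.5 replicate 1, none in replicate 2 and 5709 in replicate 3, which gave 20.7 FPKM there. Thus 99.8% of its counts came from the library with the high ovary markers. Against the floor of 3 counts over the E0.5 group the level was at least 1890-fold lower than at E4.5, a bound that rests on that library. Without it the p was 0.11 and the criterion was not met, and the criterion was also not met when any E0.5 library was left out or with limma.

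The other ligands at 1 FPKM or more on average did not meet the criterion. Wnt5a, the ligand best known for signalling without beta-catenin, stood at 3.74, 4.07 and 6.98 FPKM at E0.5 against 9.20, 6.25 and 5.89 FPKM at E4.5, with overlap (log2 fold change -0.53 ± 0.32, or -0.67 without E4.5 replicate 3). Wnt4, needed in the mouse for decidual change, stood at 5.86, 2.20 and 8.10 FPKM against 2.92, 3.45 and 8.22 FPKM, and its fold change was 0.17 ± 0.55 on the log2 scale. The highest E4.5 value of Wnt4 again came from replicate 3, without which the fold change was 0.75. Wnt16 gave 1.39, 0.818 and 4.31 FPKM at E0.5 against 8.14, 4.40 and 2.43 FPKM at E4.5 (-1.22 ± 0.71), and it met the criterion only when E0.5 replicate 3 was left out, with a range of -2.20 to -0.60 over the 6 fits that left out a library. Wnt7a, an epithelial ligand required for uterine glands, ranged from 1.04 to 4.77 FPKM at E0.5 and from 0.946 to 2.79 FPKM at E4.5 (0.52 ± 0.60, or 0.18 without E4.5 replicate 3). Wnt2b (1.33 to 3.25 and 0.925 to 4.48 FPKM) and Wnt5b (0.455 to 1.13 and 1.0 to 2.0 FPKM) overlapped as well, at log2 fold changes of -0.04 ± 0.61 and -0.82 ± 0.42 (0.89 and -0.81 without E4.5 replicate 3). Wnt2, below that level at 0.207 to 0.987 FPKM, met the criterion only without E4.5 replicate 2, with a range of 0.68 to 1.46 on the log2 scale when 1 library was left out.

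The Frizzled receptors had a summed level of 58.1 to 69.7 FPKM at E0.5 and 48.6 to 62.5 FPKM at E4.5. Of the 9 tested, 2 met the criterion, both higher at E0.5. Fzd7 (chr1:59482151-59486955, plus strand), a receptor for beta-catenin signalling in many stem cells, stood at 13.0, 13.4 and 13.3 FPKM at E0.5 against 6.27, 6.25 and 4.0 FPKM at E4.5. The change of 1.27 ± 0.23 on the log2 scale (adjusted p = 0.0582) met the criterion in all 6 fits that left out a library. The 3 E0.5 values were close together, the 2 days were fully apart, and the value without E4.5 replicate 3 was 1.06 (adjusted p = 0.0104).

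Fzd10 (chr5:128600844-128604093, plus strand) gave 7.20, 6.31 and 4.29 FPKM at E0.5 against 2.63, 3.10 and 0.535 FPKM at E4.5. The days did not overlap, but its log2 fold change of 1.5 ± 0.62 (adjusted p = 0.285) met the criterion in only 2 of 6 such fits, and was lost without any E0.5 library or E4.5 replicate 1. Leaving out E4.5 replicate 3, its lowest library, gave 1.03 (adjusted p = 0.0621). The noncoding RNA Fzd10os begins close beside it on the opposite strand. Its levels were 2.65, 2.40 and 1.59 FPKM at E0.5 against 1.26, 2.15 and 0.303 FPKM at E4.5 (0.83 ± 0.64, or 0.36 without E4.5 replicate 3). Whether the counting used strand was not given in the sources used here, so reads of this pair may not be fully told apart.

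Fzd6, which can dampen beta-catenin signalling, was apart between the days at 9.61 to 11.9 FPKM and 3.93 to 6.99 FPKM, at 0.93 ± 0.26 on the log2 scale (unadjusted p = 0.0101), just under the fold of the criterion. It met the criterion without E0.5 replicate 2 and without E4.5 replicate 1, and ranged from 0.70 to 1.14 with 1 library left out. Fzd1 was at 10.2 to 14.4 FPKM at E0.5, and at 19.9, 23.2 and 7.59 FPKM at E4.5 (-0.51 ± 0.41). Leaving out E4.5 replicate 3 gave -0.87 on the log2 scale (adjusted p = 0.0352). For Fzd2 the ranges were 6.23 to 11.3 and 4.73 to 13.5 FPKM, for Fzd3 1.38 to 3.34 and 3.15 to 7.05 FPKM, for Fzd4 3.85 to 5.30 and 2.79 to 11.3 FPKM, for Fzd5 2.12 to 3.45 and 2.88 to 4.38 FPKM, and for Fzd8 2.72 to 3.08 and 1.82 to 4.90 FPKM. All of these overlapped between the days, and E4.5 replicate 3 held the highest value of Fzd3, Fzd4, Fzd5 and Fzd8 and the lowest of Fzd2. Without that library the log2 fold changes of Fzd2, Fzd3, Fzd4, Fzd5 and Fzd8 were -0.54, -0.40, 0.19, -0.16 and 0.63, and that of Fzd6 was 0.70.

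Neither co-receptor met the criterion. Lrp5 stood at 8.10, 9.46 and 8.87 FPKM at E0.5 against 5.09, 4.97 and 6.63 FPKM at E4.5, without overlap, and its log2 fold change was 0.68 ± 0.17 (unadjusted p = 0.00578), or 0.79 without E4.5 replicate 3 (adjusted p = 0.0319). Lrp6, whose row also holds a predicted gene and a Riken gene, stood at 9.29 to 9.69 FPKM and 7.09 to 10.5 FPKM (0.16 ± 0.17).

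**Figure D2:**
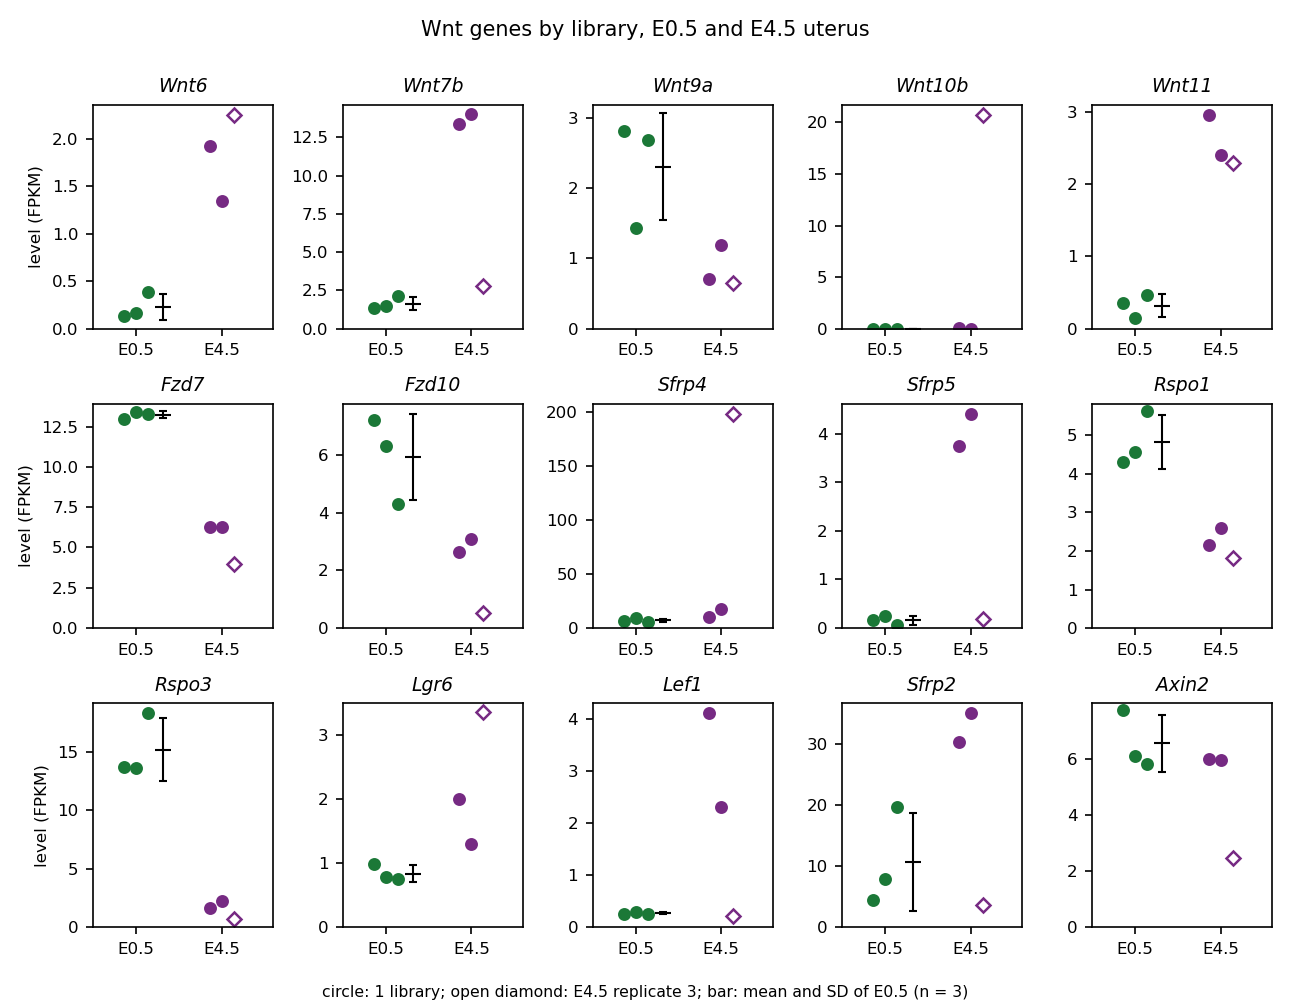
Level in FPKM (vertical axis) of the 13 Wnt genes that met the criterion at the implantation stage, with Sfrp2 and Axin2, in each E0.5 and E4.5 library; circles are libraries, the open diamond is E4.5 replicate 3, and the bar is the mean and SD of the 3 E0.5 libraries. For Wnt7b, Sfrp5, Lef1 and Sfrp2 the diamond lies near or within E0.5, for Wnt10b and Sfrp4 it carries the E4.5 level, and for Wnt6, Wnt11 and Rspo3 it lies with the other E4.5 libraries.

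Of the antagonists, 6 were tested and 2 met the criterion, both lower at E0.5 and both with E4.5 libraries that disagreed. Sfrp5 (chr19:42197971-42202252, minus strand) stood at 0.155, 0.245 and 0.0704 FPKM at E0.5 against 3.74, 4.40 and 0.178 FPKM at E4.5. The log2 fold change of -4.12 ± 1.14 (adjusted p = 0.142) became -4.68 without E4.5 replicate 3, which lay among the E0.5 values (adjusted p = 0.00439). Sfrp4 (chr13:19623104-19632994, plus strand) stood at 6.65, 8.88 and 5.39 FPKM at E0.5 against 10.1, 17.5 and 198 FPKM at E4.5. The log2 fold change of -3.37 ± 1.11 (adjusted p = 0.199) came down to -0.99 without replicate 3, just short of the criterion, with a p of 0.00976. The days did not overlap with or without that library, and the criterion was also lost without any E0.5 library, with limma and with the replicate number as a block (-2.02; unadjusted p = 0.117).

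Sfrp2, another antagonist of the same family, stood at 4.46, 7.85 and 19.7 FPKM at E0.5 against 30.4, 35.1 and 3.68 FPKM at E4.5. Its log2 fold change was -1.12 ± 0.87 (unadjusted p = 0.24), and without E4.5 replicate 3, the lowest of the 6, it was -1.62 with a p of 0.0221, which met the criterion, while the 6 fits that left out a library ranged from -1.91 to -0.72. Sfrp1 stood at 1.12 to 1.76 FPKM in 5 libraries and at 9.70 FPKM in E4.5 replicate 3, which alone set its log2 fold change of -1.48 ± 0.84, since the value was 0.25 without it. Dkk3 averaged 12.4 ± 5.26 FPKM (SD) at E0.5 and ranged from 12.2 to 20.2 FPKM at E4.5 (-0.33 ± 0.34, or -0.50 without E4.5 replicate 3). Dkk2 ranged from 2.54 to 3.77 and from 0.423 to 2.77 FPKM (0.89 ± 0.63). It met the criterion only without E4.5 replicate 1 (1.58), and without replicate 3, its lowest library, the value was 0.43.

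Of the R-spondins, Rspo1 and Rspo3 met the criterion, both higher at E0.5. Rspo3 (chr10:29452416-29535867, minus strand; the row also holds the predicted gene Gm20276), which amplifies Wnt signals through Lgr receptors, stood at 13.7, 13.6 and 18.3 FPKM at E0.5 against 1.61, 2.25 and 0.738 FPKM at E4.5. It was the leading gene of its group in every E0.5 library, with 47.6% to 57.0% of the summed level, while in every E4.5 library Lgr4 led. The log2 fold change of 3.31 ± 0.43 (adjusted p = 0.0285) was 2.97 without E4.5 replicate 3 (adjusted p = 0.00196). Rspo1 (chr4:124986430-125009099, plus strand) stood at 4.31, 4.57 and 5.63 FPKM at E0.5 against 2.15, 2.59 and 1.81 FPKM at E4.5. The days were apart (1.15 ± 0.24; adjusted p = 0.0774), and all 6 fits that left out a library met the criterion, at 1.02 without E4.5 replicate 3.

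Of their receptors, Lgr6 (chr1:134983301-135105276, minus strand) was lower at E0.5, at 0.985, 0.780 and 0.748 FPKM against 2.0, 1.3 and 3.36 FPKM (-1.39 ± 0.36; adjusted p = 0.121). The days were apart, with replicate 3 the highest of the E4.5 libraries and a value of -1.01 without it. Lgr4 stood at 6.57 to 7.17 FPKM at E0.5 against 5.57, 7.07 and 23.2 FPKM at E4.5 (-0.78 ± 0.50), and Lgr5, a marker of gland stem cells in several organs, at 0.704 to 2.55 FPKM and 1.41 to 5.05 FPKM (-0.90 ± 0.61). The highest value of both came from E4.5 replicate 3, and without it the fold changes were 0.10 and -0.20 on the log2 scale. Rspo2, at 0.787 FPKM in that library and 0 to 0.0725 FPKM elsewhere, did not meet the criterion.

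Axin2, a direct target that is widely read as a measure of beta-catenin signalling, stood at 7.72, 6.10 and 5.83 FPKM at E0.5 against 6.0, 5.94 and 2.45 FPKM at E4.5. Its days overlapped and its log2 fold change was 0.44 ± 0.37, or 0.11 without E4.5 replicate 3. Lef1 (chr3:131110471-131224356, plus strand), a nuclear factor of the pathway and itself a target, stood at 0.263, 0.287 and 0.263 FPKM at E0.5 against 4.12, 2.31 and 0.220 FPKM at E4.5. Replicates 1 and 2 of E4.5 were far above every E0.5 library and replicate 3 was below them all. The log2 fold change was -3.05 ± 0.93 (adjusted p = 0.169), and -3.59 without replicate 3 (adjusted p = 0.00204). Lef1 met the criterion whichever library was left out, but did not meet it with limma (unadjusted p = 0.071 and 0.063 at pseudocounts of 0.1 and 1 FPKM) or with the replicate number as a block (-2.35; unadjusted p = 0.0713). The markers of 6 epithelial genes summed to 218 to 259 FPKM at E0.5 and to less in each E4.5 library (lowest 72.7, median 101 FPKM), and those of 5 endothelial genes to 18.8 to 21.5 and 29.2 to 53.7 FPKM. The 6 stromal markers summed to 330 to 506 FPKM at E0.5 against 177 to 279 FPKM, and the 5 leukocyte markers to 21.5 to 31.5 FPKM against 15.4 to 17.5 FPKM. Of 10 marker lists these 4 did not overlap between the days in their sums, and their part in the differences above was not tested. Within the leukocyte list only Adgre1 (means of 6.30 and 2.98 FPKM, E0.5 first) and Itgam (7.59 and 0.666) were apart. Ptprc (1.07 and 1.43) and Cd3e (0.0403 and 0.106) leaned the other way with overlap. The largest part was the Cd68 row (12.1 and 11.5), which overlapped and also holds other genes such as Eif4a1 and Senp3. The leukocyte sum is therefore not a difference shared by its markers.

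**Figure D3:**
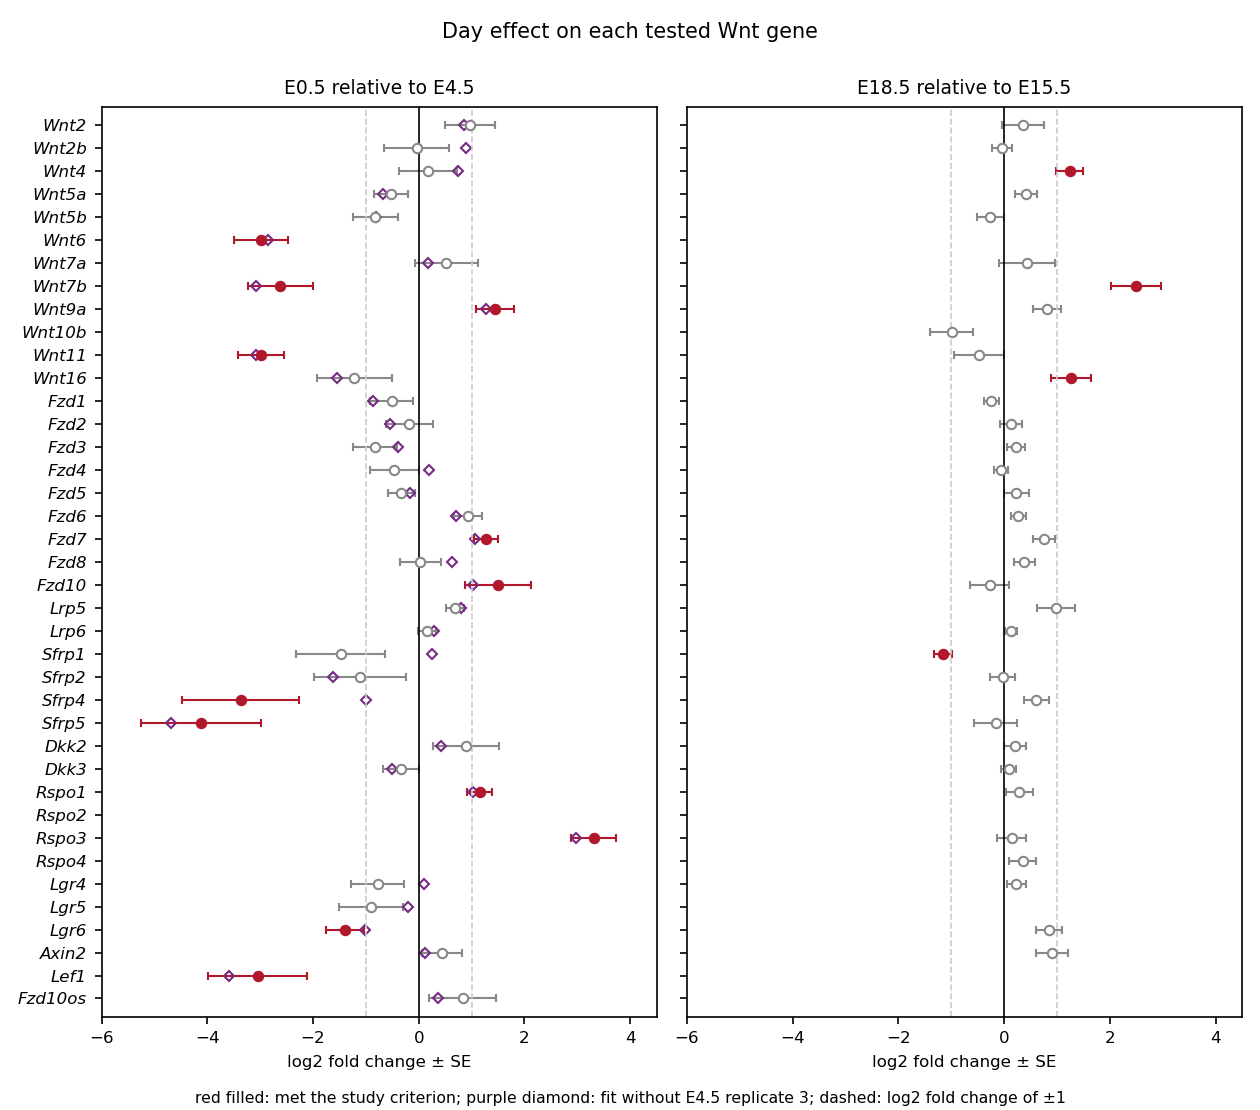
Log2 fold change of each tested Wnt gene (horizontal axis) with its SE (bar), E0.5 relative to E4.5 on the left (edgeR) and E18.5 relative to E15.5 on the right (limma); red filled points met the criterion and purple diamonds give the implantation fit without E4.5 replicate 3. Wnt10b and Rspo2, whose fits rest on libraries at or near 0, are not drawn on the left, where 5 genes lie on the positive side and 7 of the drawn genes on the negative side as red points, against 3 and 1 on the right.

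Rows outside the rule gave a further view of the same loci in the same libraries. Of the 41 rows that carried a member's name without an Ensembl transcript, mostly short unannotated stretches inside or beside the gene, 39 were tested and 13 met the criterion, where 12.2% of all rows did. Beside the called members lay 13 such rows at 7 genes, of which 12 had the sign of the member's own row and 8 met the criterion in that direction. The other 5 that met it lay among the 26 rows at genes that were not called. They were 3 of the 4 rows of Fzd10os, higher at E0.5 by 1.36 to 1.93 on the log2 scale where its own row gave 0.83 with all libraries, 1 of Axin2, and 1 of Lrp6, which was lower at E0.5 (-1.34 ± 0.54; adjusted p = 0.274) where the Lrp6 row itself gave 0.16. Inside the Lef1 locus, for example, a row at chr3:131161143-131168539 stood at 0.530, 0.344 and 0.271 FPKM at E0.5 against 3.61, 2.93 and 0.592 FPKM at E4.5, and one inside Wnt11 (chr7:98841915-98844799) gave a log2 fold change of -2.73 ± 0.43 (adjusted p = 0.0432). At Axin2, whose own row did not meet the criterion, a stretch at chr11:108951375-108952560 was at 0.920, 1.82 and 1.18 FPKM at E0.5 against 0.102, 0.349 and 0.0782 FPKM at E4.5 (2.87 ± 0.68; adjusted p = 0.103), while the other 2 Axin2 stretches did not meet it. These examples were chosen after their values were seen, and such rows are not independent of the member rows. At the labor stage 5 such rows were tested (limma) and none met the criterion, where 6.05% of all rows did. Those of Lrp5 (-0.46 ± 0.21) and Wnt5b (1.11 ± 0.95) had the opposite sign to the member, and those of Rspo4, Wnt2b and Dkk2 the same sign.

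At the labor stage 4 of the 34 tested Wnt genes met the criterion, where 6.05% of all rows did. Wnt4, Wnt7b and Wnt16 were higher at E18.5 (3.11% of all rows were) and Sfrp1 was lower (2.93%). None passed the adjusted p (limma; 0.0259% of all rows did), while 11 had an unadjusted p under 0.05 (12.2% of all rows), and no other tool was run on this table. The median log2 fold change of the 34 genes was 0.23, against 0.020 over all rows, with 24 positive and 10 negative. The groups did not overlap for 14 of them, 12 higher at E18.5 and 2 lower, against 19.9% of all rows. Leaving out E15.5 replicate 3 or E18.5 replicate 3 gave 7 genes in place of 4, where the share of all rows also rose, to 7.74% and 7.38%, and with a pseudocount of 1 FPKM Wnt7b alone met the criterion (1.66% of all rows). E15.5 replicate 1 had rank correlations of 0.876 and 0.848 with the other E15.5 libraries, against 0.93 between those. It held the lowest of the 6 values for 16 of the 34 genes, and E18.5 replicate 1 held the highest for 17. Counted at either end, these libraries held 58.8% and 52.9% of the genes, against 54.1% and 42.9% of all rows. Tied values, such as several libraries at 0, were counted for the first library in order, here E15.5 replicate 1. Its share of all rows may therefore be too high.

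Wnt7b stood at 3.53, 1.76 and 1.46 FPKM at E18.5 and at 0.176, 0.208 and 0.586 FPKM at E15.5. Every E18.5 library lay above every E15.5 library, and the log2 fold change of 2.50 ± 0.47 (adjusted p = 0.141) was the largest among the Wnt genes tested in this stage. Wnt4 stood at 2.52, 1.75 and 1.75 FPKM at E18.5 against 1.01, 0.686 and 0.683 FPKM at E15.5, again fully apart (1.24 ± 0.25; adjusted p = 0.149). Wnt16 stood at 0.659, 0.792 and 0.964 FPKM against 0.125, 0.351 and 0.411 FPKM (1.27 ± 0.38; adjusted p = 0.262), and it lost the criterion without E15.5 replicate 1. Wnt5a was the ligand at the highest level in all 6 libraries, at 38.0% to 53.8% of the summed ligand level. It gave 7.74, 7.48 and 5.73 FPKM at E18.5 and 4.07, 5.23 and 6.60 FPKM at E15.5, with overlap (0.41 ± 0.21).

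**Figure D4:**
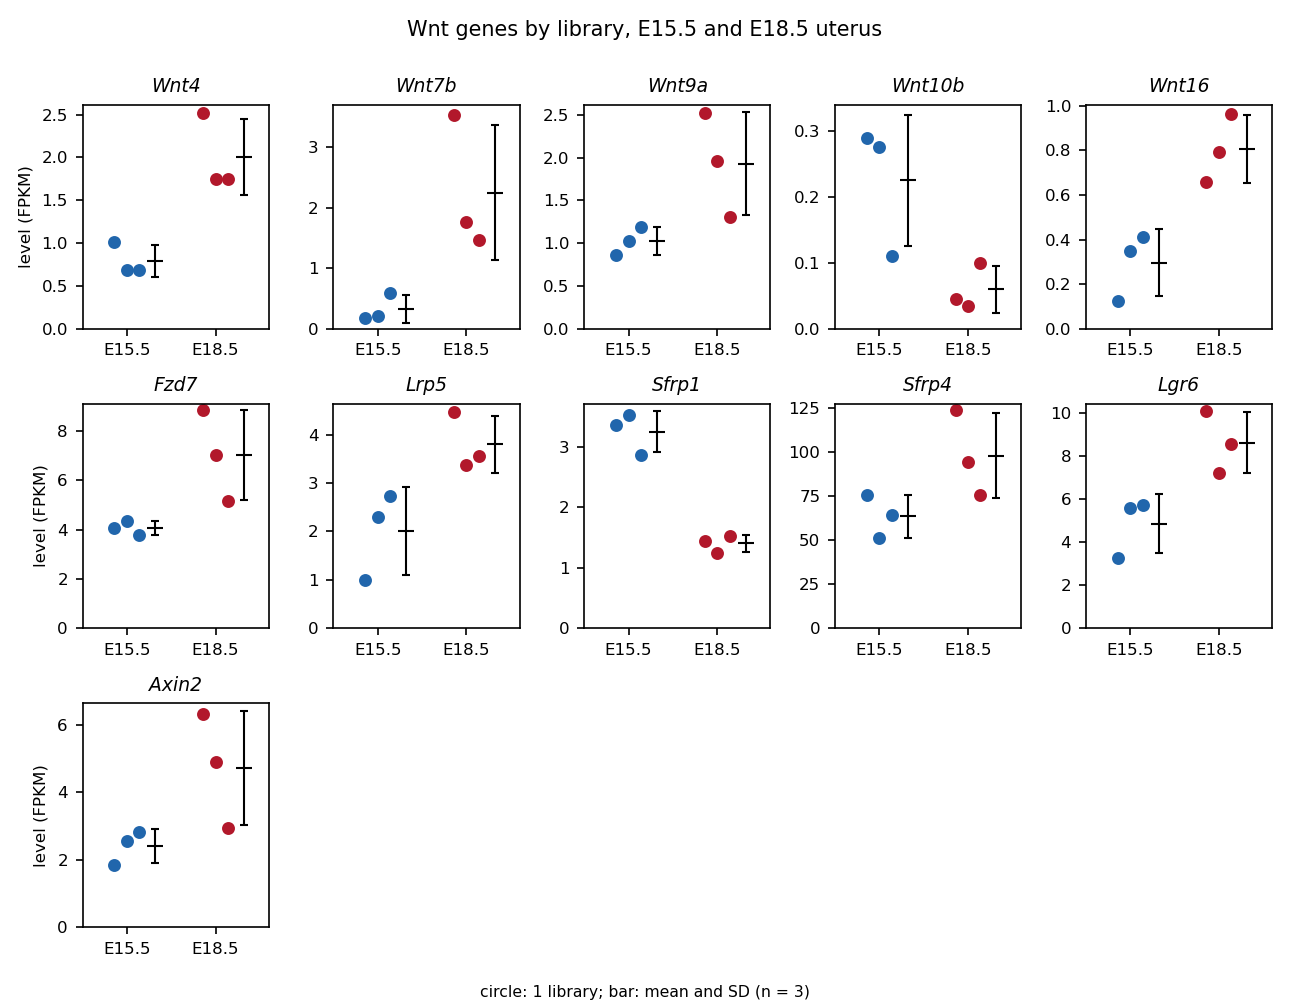
Level in FPKM (vertical axis) of the 11 Wnt genes with an unadjusted p under 0.05 at the labor stage, in each E15.5 and E18.5 library; points are libraries and the bars are the mean and SD of 3. Of these, Wnt10b and Sfrp1 lie lower at E18.5 and the other 9 higher, with no overlap between the days in any of them.

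The other ligands did not meet the criterion. Wnt9a stood at 2.52, 1.96 and 1.31 FPKM at E18.5 and at 0.863, 1.02 and 1.19 FPKM at E15.5, apart between the days but under the fold of the criterion (0.81 ± 0.27; unadjusted p = 0.0209), and it met the criterion without E18.5 replicate 3, with a range of 0.61 to 1.05 when 1 library was left out. Wnt10b was low throughout, at 0.0339 to 0.1 FPKM and 0.110 to 0.290 FPKM (-0.99 ± 0.41), and met the criterion only without E15.5 replicate 3 or E18.5 replicate 3. Wnt2b was even, at 1.06 to 1.22 FPKM and 1.06 to 1.34 FPKM (-0.04 ± 0.19), as was Wnt5b at 0.723 to 1.2 and 1.04 to 1.42 FPKM (-0.26 ± 0.25). Wnt11, called at the implantation stage, stood at 0.0397 to 0.176 FPKM and 0.0558 to 0.211 FPKM (-0.47 ± 0.47). Wnt6, at 0 to 0.0692 FPKM and 0.0773 to 0.118 FPKM, and Lef1, at 0.00413 to 0.03 FPKM and 0.0621 to 0.182 FPKM, were under the level needed for a test.

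The Frizzled receptors had summed levels of 40.0 to 43.4 FPKM at E18.5 and 38.1 to 38.3 FPKM at E15.5, led by Fzd1 in every library. None of the 9 tested met the criterion. Fzd7 came nearest, at 8.85, 7.02 and 5.18 FPKM at E18.5 against 4.07, 4.34 and 3.76 FPKM at E15.5, apart between the days (0.75 ± 0.21; unadjusted p = 0.00876). Fzd1 stood at 11.9 to 14.5 and 13.7 to 16.7 FPKM, Fzd2 at 3.89 to 5.86 and 3.59 to 4.64 FPKM, Fzd3 at 1.26 to 1.39 and 1.08 to 1.21 FPKM, and Fzd4 at 3.11 to 3.36 and 3.05 to 3.72 FPKM, E18.5 first. Fzd5 stood at 3.02 to 4.21 and 2.12 to 3.64 FPKM, Fzd6 at 6.37 to 7.75 and 5.4 to 6.57 FPKM, and Fzd8 at 1.32 to 1.92 and 1.10 to 1.28 FPKM. The log2 fold changes of these 7 lay between -0.24 and 0.38. Fzd10, several FPKM at E0.5, was at 0.0472 to 0.161 FPKM in the labor libraries (-0.27 ± 0.37), though levels of the 2 tables are not on 1 scale.

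Lrp5 stood at 4.47, 3.38 and 3.56 FPKM at E18.5 and at 0.994, 2.30 and 2.74 FPKM at E15.5. The days were apart and the log2 fold change was 0.99 ± 0.36 (unadjusted p = 0.0293), at the edge of the criterion, which it met without E15.5 replicate 2 and without E15.5 replicate 3. With 1 library left out the value ranged from 0.57, without E15.5 replicate 1, its lowest library, to 1.26. A second row named Lrp5, outside the rule, went the other way at -0.46 ± 0.21. Lrp6 held 11.0 to 12.2 FPKM and 10.0 to 11.1 FPKM (0.13 ± 0.11).

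Sfrp1 (chr8:23411502-23449632, plus strand, from the implantation table), the only member that met the criterion in the lower direction, stood at 1.45, 1.25 and 1.52 FPKM at E18.5 and at 3.37, 3.53 and 2.87 FPKM at E15.5. The replicates of each day were close and the days far apart, and the log2 fold change was -1.16 ± 0.17 (adjusted p = 0.0911), the smallest adjusted p among the members. Sfrp4, of the same family, made up 74.2% to 88.0% of the summed antagonist level. It stood at 124, 94.3 and 76.0 FPKM at E18.5 and at 75.6, 51.1 and 64.5 FPKM at E15.5, barely apart (0.61 ± 0.23; unadjusted p = 0.0342). Sfrp5 ranged from 2.48 to 3.48 and from 1.96 to 6.36 FPKM (-0.16 ± 0.41), Sfrp2 from 0.887 to 1.12 and from 0.793 to 1.25 FPKM (-0.03 ± 0.23), Dkk2 from 2.55 to 4.21 and from 2.51 to 2.79 FPKM (0.21 ± 0.21), and Dkk3 from 7.70 to 8.46 and from 6.75 to 8.78 FPKM (0.09 ± 0.14). All of these overlapped between the days.

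Lgr6 stood at 10.1, 7.23 and 8.58 FPKM at E18.5 and at 3.27, 5.57 and 5.75 FPKM at E15.5, apart between the days (0.85 ± 0.25; unadjusted p = 0.0115). Rspo1 (3.85 to 6.75 and 3.42 to 5.08 FPKM; 0.29 ± 0.25), Rspo3 (3.11 to 5.33 and 2.96 to 5.21 FPKM; 0.14 ± 0.27) and Lgr4 (7.41 to 9.92 and 6.35 to 8.57 FPKM; 0.23 ± 0.18) overlapped. Axin2 stood at 6.32, 4.89 and 2.95 FPKM at E18.5 and at 1.84, 2.56 and 2.81 FPKM at E15.5. Its days were apart by a narrow margin (0.90 ± 0.30; unadjusted p = 0.0209), and it met the criterion without E15.5 replicate 3 and without E18.5 replicate 3, with a range of 0.66 to 1.2 when 1 library was left out. The same 6 epithelial markers summed to 641 to 897 FPKM at E18.5 and 202 to 443 FPKM at E15.5. The 5 endothelial markers summed to 69.6 to 98.1 and 141 to 171 FPKM. Cdh5 was their largest part (means of 47.9 and 111 FPKM), Pecam1 and Emcn were also lower at E18.5, and Kdr and Tek overlapped. The 8 trophoblast and placenta markers found summed to 44.9 to 75.9 and 4.05 to 35.0 FPKM. Tpbpa (means of 42.3 and 3.09 FPKM) and Plac1 were apart, and the others of that list overlapped. The 6 yolk sac markers varied widely within a day, at 314, 814 and 220 FPKM at E18.5 and 10.3, 170 and 1070 FPKM at E15.5. The part of these lists in the differences above was not tested.

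Because the study set the earlier day over the later one at implantation and the later over the earlier at labor, the day effects were compared in both directions, each in 1 limma model of log2(FPKM + 0.1) over all 12 libraries and the 33 Wnt genes tested in both tables. In the study's directions the implantation and labor effects differed for 10 genes at an unadjusted p under 0.05 (18.2% of all paired rows) and for 3, Rspo3, Wnt7b and Lgr6, at the adjusted p (2.7%). With both effects taken as the later day minus the earlier, an alternative chosen after the data were seen, 11 genes differed (23% of all paired rows) and 7 passed the adjusted p (7.65%). Only Fzd6, Rspo1, Rspo3 and Wnt11 differed at the unadjusted p in both directions.

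For Wnt7b the answer turned on the direction. Its effect was -2.27 at implantation and 2.50 at labor in the study's directions, a difference of -4.76 ± 0.83 (adjusted p = 0.0158), yet in time order it was higher on the later day of both stages and the difference was -0.23 ± 0.83 (unadjusted p = 0.785). Lgr6 gave -2.06 ± 0.45 (adjusted p = 0.0358) and, in time order, 0.37 ± 0.45 (unadjusted p = 0.425). Wnt16 gave -2.59 ± 0.81 and 0.06 ± 0.81. For these 3 genes the later day was higher in both stages on average.

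Rspo3 differed either way, at 3.20 ± 0.50 (adjusted p = 0.00992) and -3.48 ± 0.50 (adjusted p = 0.00328), with a fall from E0.5 to E4.5 and a fold change of 0.14 ± 0.27 from E15.5 to E18.5 on the log2 scale. Wnt11 gave -2.26 ± 0.59 (adjusted p = 0.0675) and 3.20 ± 0.59 (adjusted p = 0.0103). Fzd7 and Wnt9a, lower on the later day at implantation and with higher values on the later day at labor, differed in time order alone, by -2.03 ± 0.30 (adjusted p = 0.004) and -2.14 ± 0.46 (adjusted p = 0.0193). The same held for Lrp5, at -1.65 ± 0.42 (adjusted p = 0.0381). Rspo1 and Fzd6 gave -1.41 ± 0.33 and -1.22 ± 0.29 in time order (adjusted p = 0.0271 and 0.0279). Axin2, Sfrp5, Wnt2 and Wnt5b made up the rest of the 11, at unadjusted p values of 0.0156, 0.0362, 0.0498 and 0.0491.

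**Figure D5:**
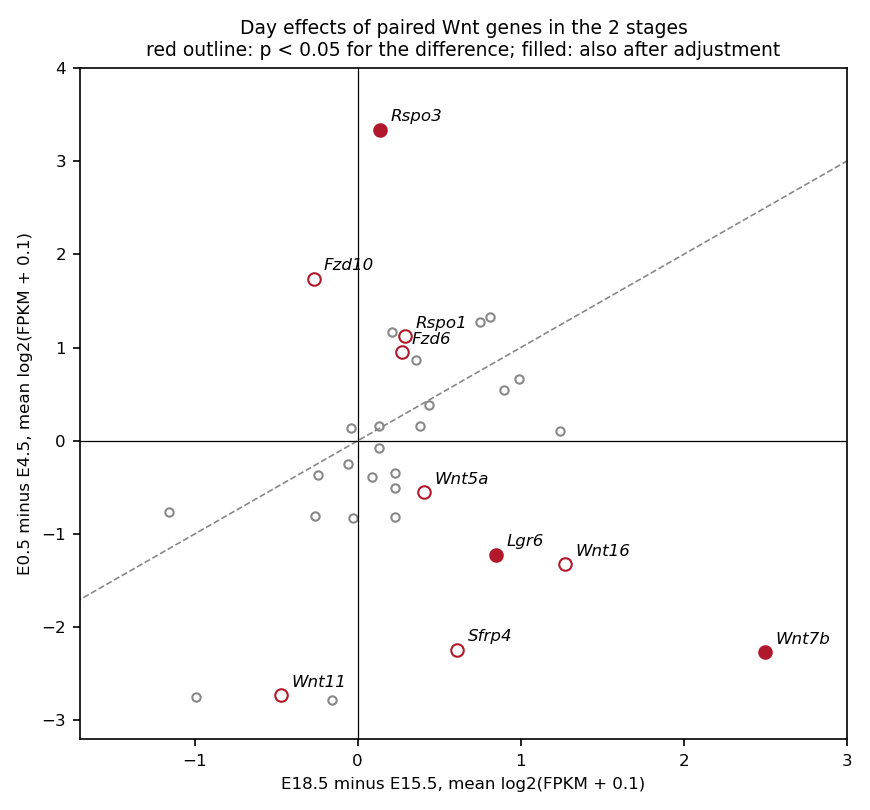
Difference between days in mean log2(FPKM + 0.1), E18.5 minus E15.5 on the horizontal axis and E0.5 minus E4.5 on the vertical axis, for the 33 paired Wnt genes; red outlines mark an unadjusted p under 0.05 for the difference of the 2 effects and filled points an adjusted one, and the dashed line marks equal effects. Wnt7b, Wnt16 and Lgr6 lie at the lower right, which is a higher level on the later day of both stages, and Rspo3 lies at the top near 0 on the horizontal axis.

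The wider pathway was read from a list of 45 further genes, of which 44 rows were tested at implantation and 40 at labor. At implantation 12 met the criterion (12.2% of all rows did), 7 higher at E0.5 (6.37%) and 5 lower (5.82%), and 4 passed the adjusted p (1.22%): Celsr2, which kept it in 2 of the 6 fits that left out a library, and Rnf43, Bcl9 and Tnfrsf19, which each kept it in 1, the one without E4.5 replicate 3. Without E4.5 replicate 3, 12 met the criterion (14.1% of all rows), with Nkd2 (-1.07) and Ccnd1 (-1.60) in place of Porcn and Ror2, and 11 passed the adjusted p (6.08%). The median log2 fold change of the list was 0.02 at implantation, against -0.007 over all rows, and 0.23 at labor, against 0.020. Celsr2, a cadherin of planar cell polarity, stood at 18.3, 17.0 and 19.4 FPKM at E0.5 against 2.82, 3.65 and 2.52 FPKM at E4.5 (2.61 ± 0.20; adjusted p = 0.00839). The days were fully apart, and E4.5 replicate 3 lay with the other E4.5 libraries.

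Rnf43, a ligase that removes Frizzled receptors and is the enzyme that R-spondins hold back, stood at 4.59, 4.52 and 3.21 FPKM at E0.5 against 1.03, 1.38 and 1.19 FPKM at E4.5 (1.79 ± 0.21; adjusted p = 0.0239). The co-activator Bcl9 was higher at E0.5 by 1.19 ± 0.19 on the log2 scale (adjusted p = 0.0448) and the target Tnfrsf19 by 1.05 ± 0.15 (adjusted p = 0.0337), which fell just short of the criterion without E0.5 replicate 1. Porcn, which adds the lipid to Wnt ligands, was higher by 1.15 ± 0.39 and the receptor Ror2 by 1.28 ± 0.51, with adjusted p values of 0.208 and 0.268. Both lost the criterion without E4.5 replicate 3, their lowest library, at 0.82 and 0.87, and without E0.5 replicate 3, and Ror2 also without E0.5 replicate 2. Sp5, a target that averaged under 1 FPKM, was the seventh, at 1.96 on the log2 scale and 2.45 without E4.5 replicate 3, and it met the criterion in 3 of 6 fits that left out a library. The 5 lower at E0.5 were the inhibitors Notum (-2.88 ± 0.75) and Apcdd1 (-1.82 ± 0.50), the target Myc (-1.84 ± 0.53) and the polarity genes Prickle1 (-1.18 ± 0.41) and Prickle2 (-1.45 ± 0.45). Prickle1 met the criterion in only 1 of 6 fits that left out a library, the one without E4.5 replicate 3 (-1.54). In that library it stood at 2.58 FPKM, within the E0.5 range of 2.35 to 2.76 FPKM. Myc stood at 3.46 FPKM there, against 14.1 and 14.2 FPKM in the other E4.5 libraries and 2.63 to 3.37 FPKM at E0.5, and gave -2.27 without it. Without it Notum, Apcdd1 and Prickle2 gave -3.23, -2.22 and -1.7, and Celsr2, Rnf43, Bcl9 and Tnfrsf19 gave 2.48, 1.75, 1.16 and 1.03. Notum, which takes the lipid off Wnt ligands, stood at 0.568, 0.155 and 0.126 FPKM at E0.5 against 3.31, 1.89 and 1.01 FPKM at E4.5, without overlap.

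At labor 4 of the 40 met the criterion (6.05% of all rows did) and none passed the adjusted p (limma; 0.0259%), while 9 had an unadjusted p under 0.05 (12.2%). Celsr2 was higher at E18.5, at 4.01, 1.85 and 1.61 FPKM against 0.139, 0.445 and 0.845 FPKM (2.27 ± 0.56; adjusted p = 0.199). Porcn (1.04 ± 0.26; adjusted p = 0.203) and Ror2 (1.02 ± 0.32; adjusted p = 0.28) were higher as well. Ror1, a receptor related to Ror2, was lower, at 1.5, 2.16 and 3.02 FPKM against 6.86, 4.96 and 4.17 FPKM (-1.24 ± 0.29; adjusted p = 0.183). The count fell to 2 without E15.5 replicate 1 or E18.5 replicate 1 (5.01% and 4.97% of all rows), which took out Porcn and Ror2. Of the 6 fits that left out a library Porcn met the criterion in 2 and Ror2 in 4.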

How the data were processed

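RNA was sequenced from 12 uterus libraries, 3 per group (E0.5 and E4.5 at implantation, E15.5 with E18.5 at labor). The labels name poly(A) selection and list HISAT2 2.0, StringTie 1.3.0, Bowtie 0.12.2 and the builds mm10 and mm8. The published methods name ribosomal RNA removal, mapping with Bowtie2 and Tophat2, and levels from StringTie and Ballgown. How the read counts of each row were made was not given in the sources used here. The authors deposited read counts and FPKM per assembled row for E0.5 and E4.5 and FPKM only for E15.5 and E18.5, beside their own fold changes and p-values, which were not used. At implantation the value 0.0001 FPKM stands for 0: all 168941 such values had a count of 0. Of 50 member rows whose name RefSeq (GRCm38.p6) holds, 50 overlap the gene of that name. Of each library's counts, 1.02% to 1.86% fell on rows that name no gene.

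Implantation counts were tested with edgeR 4.0.16 (TMM, quasi-likelihood F-test) and labor levels with limma 3.58.1 (trend) on log2(FPKM + 0.1), over the 59732 and 30928 rows averaging 0.1 FPKM or more, with Benjamini-Hochberg adjustment over all of them; a fold change on log2(FPKM + 0.1) understates the change of low genes. Stage differences were tested with limma on 21396 of 32721 rows paired by shared transcripts. An exact permutation test of 3 against 3 cannot go below p = 0.1. All tests were tried on simulated data. Alternatives were DESeq2 1.42.0, other scalings, filters and pseudocounts, a replicate block and leaving out each library. Same-numbered libraries did not deviate together (correlations of -0.063 to 0.018), so the number was not used as a pairing. Named genes are members at a mean of 1 FPKM or more, members that met the criterion in either stage, and pathway genes that met it at 1 FPKM or more. The members and gene lists were chosen with earlier results of these data known. Floors cover counting error only.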

Additional observations from a re-analysis of the deposited data

Results flagged for a closer look

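The day effects of 10 Wnt genes differed between the stages by the test of that difference (E0.5 minus E4.5, less E18.5 minus E15.5, in log2(FPKM + 0.1); limma), where 18.2% of all paired rows did at the same unadjusted p under 0.05 and their median was -0.14. The difference was -4.76 for Wnt7b, -2.85 for Sfrp4, -2.59 for Wnt16, -2.26 for Wnt11, -2.06 for Lgr6, -0.95 for Wnt5a, 0.69 for Fzd6, 0.83 for Rspo1, 2.01 for Fzd10 and 3.20 for Rspo3. Of the 12 fits that left out a library, Wnt5a and Fzd6 kept an unadjusted p under 0.05 in 6. Sfrp4 and Rspo1 kept it in 7, and the others in all 12. Wnt7b, Lgr6 and Rspo3 passed the adjusted p, and Rspo3 alone did so in each of the 12 fits that left out a library; Wnt7b lost it without E15.5 replicate 2, and Lgr6 kept it in 2 of the 12. Without E4.5 replicate 3, Sfrp4 gave -1.56, Fzd10 1.27, Fzd6 0.44 and Rspo1 0.71, the last 2 with unadjusted p values of 0.057 and 0.0618, while Sfrp5 went from -2.62 to -3.92 (adjusted p = 0.00546) and Sfrp1 from 0.39 to 1.38 (adjusted p = 0.0203), so that 5 genes passed the adjusted p (5.91% of all paired rows) in place of 3 (2.7%), and Wnt10b went from -1.75 to 0.72 (unadjusted p = 0.246). Taken as the later day minus the earlier in both stages, the test gave p values above 0.05 for Wnt5a, Wnt7b, Wnt16, Fzd10, Sfrp4 and Lgr6.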

How the results depend on the processing

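At the implantation stage 13 Wnt genes met the criterion, 10 to 14 with 1 library left out, 11 with a replicate block and 7 with limma at a pseudocount of 1 FPKM, where the shares of all rows were 12.2%, 10.0% to 14.1%, 10.4% and 5.13%. The block took out Sfrp4 and Lef1, limma at 0.1 FPKM these and Wnt10b, and limma at 1 FPKM also Wnt9a, Rspo1 and Lgr6, while DESeq2 gave no p for Sfrp4 and Wnt10b. Those past the adjusted p, 2 by edgeR (1.22% of all rows), were 12 by DESeq2 (9.74%), 4 with rows of at least 1 FPKM (3.07%), none with the replicate block (0 of all 59732 rows; 15 genes had an unadjusted p under 0.05 without it) and 0 to 9 with 1 library left out (0% to 6.08%), so these counts moved with those of the whole table. At the labor stage 4 met the criterion (6.05% of all rows), 1 at a pseudocount of 1 FPKM (1.66%), 4 with the replicate block (5.99%) and 3 to 7 with 1 library left out (4.97% to 7.74%), and none passed the adjusted p under any alternative. Pathway genes that met the criterion numbered 12 at implantation, 7 with limma at a pseudocount of 1 FPKM and 9 to 12 with 1 library left out. The shares of all rows were 12.2%, 5.13% and 10.0% to 14.1%. At labor they numbered 4 (6.05% of all rows), 1 at a pseudocount of 1 FPKM (1.66%), 2 with quantile normalization (6.01%) and 2 to 5 with 1 library left out (4.97% to 7.74%). Genes whose day effect differed between the stages numbered 10 (18.2% of all paired rows), 12 with the replicate block (16.7%; none of them past the adjusted p, against 3 without it), and 6 to 12 with 1 library left out (15.2% to 21.5%), 6 being without E18.5 replicate 2. The cause of these changes was not tested, beyond the smaller number of libraries or rows that some alternatives use. Libraries that share a replicate number share only that number.

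Of 47 named genes at implantation 39 kept their direction under every alternative, and of 35 at labor 27 did. The direction of Wnt2b at implantation turned with upper quartile factors (0.06), limma (0.14 and 0.06 at pseudocounts of 0.1 and 1) and the replicate block (0.21), where edgeR gave -0.04. With 1 library left out, the log2 fold changes that changed sign ranged at implantation from -0.47 to 0.89 (Wnt2b), -0.27 to 0.75 (Wnt4), -0.13 to 0.90 (Wnt7a), -0.54 to 0.11 (Fzd2), -0.82 to 0.19 (Fzd4), -0.21 to 0.63 (Fzd8), -1.93 to 0.25 (Sfrp1) and -1.11 to 0.10 (Lgr4), and at labor from -0.11 to 0.05 (Wnt2b), -0.05 to 0.24 (Fzd2), -0.14 to 0.00 (Fzd4), -0.01 to 0.37 (Fzd5), -0.19 to 0.10 (Sfrp2), -0.50 to 0.33 (Sfrp5), -0.01 to 0.34 (Dkk2) and -0.05 to 0.36 (Rspo3). None of these genes met the criterion in the stage given. Without the depth of the labor libraries no counting precision can be given for their low values.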
